A study of Homo sapiens with 4 samples.

Results

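The genes described here are 31 genes of protein synthesis and amino acid supply: 20 genes for cytosolic aminoacyl-tRNA synthetases and 11 genes of the ATF4 branch of the stress response. They were taken by gene symbol from the 21865 symbols listed for 4 human acute myeloid leukemia cell lines, each symbol was found once, and all 31 were among the 12976 genes that reached 1 RPKM in at least 1 line (called measured). RPKM is the abundance of a transcript scaled for gene length and for the library total, so levels of different genes can be set side by side. The lines were HL60, a myeloblastic to promyelocytic line, THP-1 and MonoMac-1, monocytic lines with an MLL-AF9 fusion, and KG1a, an immature CD34-positive line; the lineage and the fusion are general knowledge of these lines and are not in the labels. All 4 were kept in the same medium, RPMI/Opti-Media, to which fetal bovine serum (inactivated, 10%), penicillin and streptomycin were added. Each line was sequenced as 1 library, and the title of the THP-1 sample has a suffix, "tr", that no label explains.

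Aminoacyl-tRNA synthetases join each amino acid to its tRNA and so supply the ribosome. When amino acids run short or unfolded proteins fill the endoplasmic reticulum, kinases of the integrated stress response phosphorylate the initiation factor eIF2. General translation then falls while translation of the transcription factor ATF4 rises, and ATF4 with C/EBP partners raises amino acid transporters, synthetic enzymes and many synthetases. Because ATF4 is controlled largely at translation, its mRNA level is not a measure of its protein. Within the 20 synthetases, 12 are commonly listed as ATF4 targets (AARS, CARS, EPRS, GARS, IARS, LARS, MARS, NARS, SARS, TARS, WARS and YARS) and 8 are not (DARS, FARSA, FARSB, HARS, KARS, QARS, RARS and VARS).

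The libraries held 6.04 to 13.6 gigabases on genes, with the lowest depth in THP-1 and the highest in MonoMac-1. With 1 library a line, no value has a replicate check. Monocyte markers summed to 5225 RPKM in MonoMac-1 and 944 in THP-1 against 17.6 in HL60 and 2.11 in KG1a. Most of the MonoMac-1 sum was LYZ, at 4837 RPKM there against 510 in THP-1. IRF8 and CSF1R were higher in THP-1, and CD68 and CD14 in MonoMac-1. CD34 stood at 494 RPKM in KG1a, and the granule gene MPO at 4610 RPKM in HL60. The other granule genes ran the other way: ELANE stood at 76.6 RPKM in HL60 against 1313 in MonoMac-1 and 1042 in THP-1, and AZU1 at 174.8 in HL60 against 1536 in MonoMac-1 and 2033 in THP-1. The 5 stromal and epithelial markers summed to at most 5.12 RPKM in any line. In 24 genes restricted to KG1a the HL60 library had a median of 2.75% of the KG1a value, 83.3% of them under 5%. Taking that share of KG1a off the HL60 values left the 2 main counts below, 26 and 10, as they were. The log2 median-of-ratios factors of the libraries ran only between -0.01 (HL60 and THP-1) and 0.06 (MonoMac-1).

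On the deposited scale HL60 held the highest level of most of the set. Of the 31 genes 26 were highest in HL60, 2 in KG1a (DARS and PSPH), 1 in MonoMac-1 (NARS) and 2 in THP-1 (EPRS and DDIT3). Among all measured genes, 23.1% were highest in HL60, 31% in KG1a, 24.9% in MonoMac-1 and 21% in THP-1. With the libraries scaled to ribosomal protein genes, described at the end, 12 of the 31 were highest in HL60 and 3 passed the 2-fold rule below, in place of 26 and 10. The summed level of the 31 genes was 3740 RPKM in HL60, against 1601 in MonoMac-1, 1641 in THP-1 and 1675 in KG1a. The median member stood at 110.4 RPKM in HL60, above 95.7% of measured genes there, and at 45.0 in MonoMac-1, 49.7 in THP-1 and 46.3 in KG1a. NARS was the sole member that was lowest in HL60 (26.2% of all genes). THP-1 was lowest in 8 members (23.4% of all genes), MonoMac-1 in 11 (19.4%) and KG1a in 11 (29.7%).

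**Figure D1:**
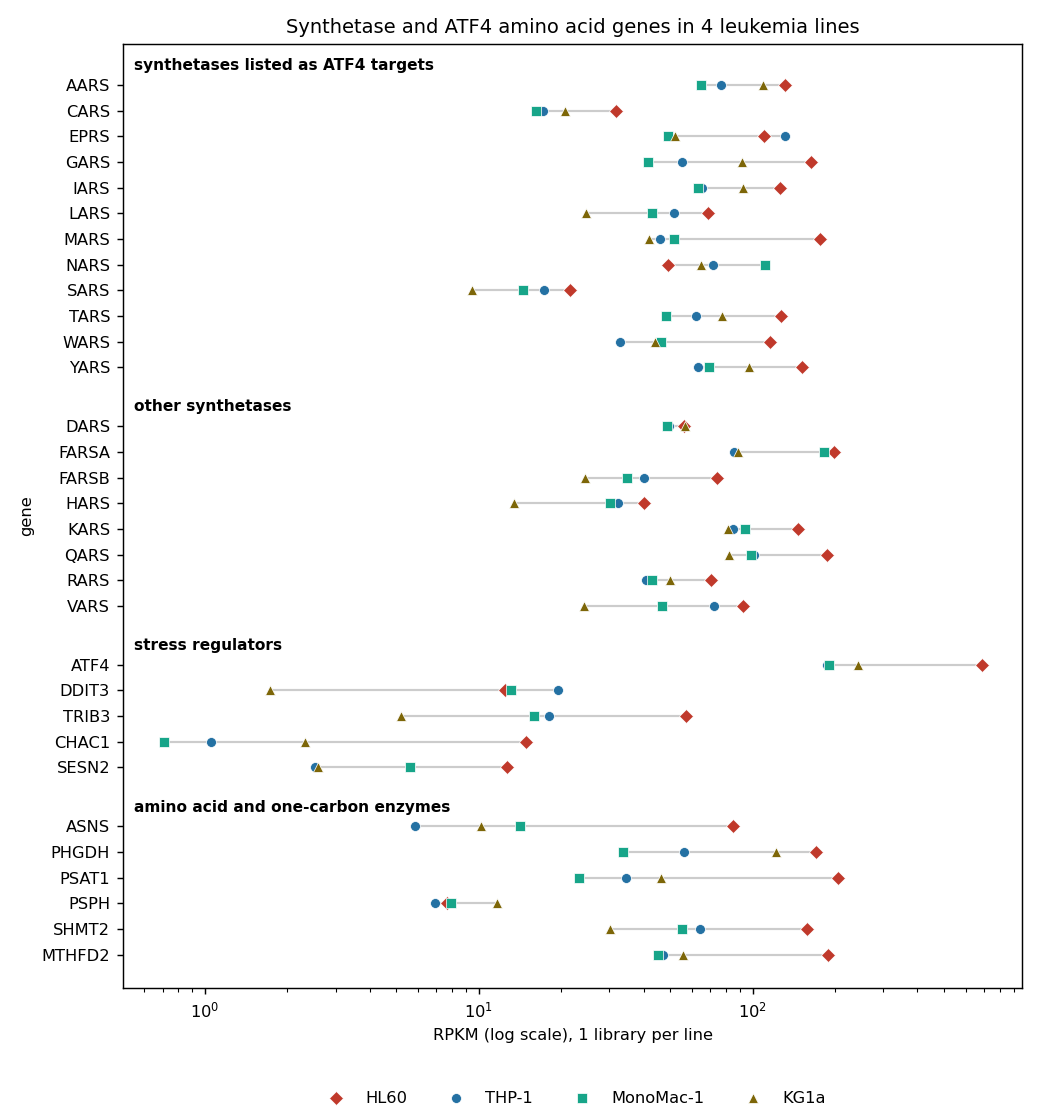
Level of each of the 31 genes (RPKM, log scale) in the 4 lines, 1 point per library, grouped by role; the grey line joins the lowest and highest value of a gene. HL60 (diamonds) lies at the right end for 26 genes, and the longest lines are those of CHAC1 (highest level 21.1 times the lowest), ASNS (14.5), DDIT3 (11.3) and TRIB3 (11.0).

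A gene was counted as raised in a line when its log2(RPKM + 1) lay at least 1, that is 2-fold, above that of each other line. By this rule 10 of the 31 genes stood apart in HL60, where 2.17% of all measured genes did, and 0 of the 31 did so in THP-1, MonoMac-1 or KG1a (3.62%, 3.63% and 7.92% of all genes). No member was lowered by the same measure in HL60, THP-1 or MonoMac-1, where 3.87%, 1.6% and 0.886% of all genes were. The 10 were ATF4, TRIB3, CHAC1, SESN2, ASNS, PSAT1, SHMT2 and MTHFD2 of the ATF4 branch (8 of 11) and MARS and WARS of the synthetases (2 of 20). The member just inside the limit was SESN2, at 1.05 on the log2 scale, and the member just outside was FARSB, at 0.88. The median difference between HL60 and the highest other line was 1.5 for the ATF4 branch, 0.47 for the synthetases and -0.58 for all measured genes.

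The transcription factor itself was the most abundant member. ATF4 (chromosome 22, 39916569 to 39918691, hg19) stood at 686 RPKM in HL60, against 190.3 in MonoMac-1, 187 in THP-1 and 242 in KG1a. The last 3 lines lay within a narrow band, and HL60 lay 2.83 times above the highest of them, KG1a. TRIB3, a pseudokinase that ATF4 induces and that dampens its activity, stood at 57.2 RPKM in HL60, 15.9 in MonoMac-1, 18.1 in THP-1 and 5.19 in KG1a. TRIB3 was thus raised in HL60 and at least 2-fold below each other line in KG1a.

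CHAC1 degrades glutathione and is a target of the ATF4, ATF3 and CHOP cascade. It stood at 14.9 RPKM in HL60 (95% counting interval 14.0 to 15.8), against 1.06 in THP-1 (0.789 to 1.38), 0.706 in MonoMac-1 (0.559 to 0.880) and 2.32 in KG1a (2.01 to 2.66). The HL60 value was 14.1 times that of THP-1, 21.1 times that of MonoMac-1 and 6.42 times that of KG1a, and the interval of HL60 lay clear of the others. SESN2, a leucine sensor that restrains mTORC1, stood at 12.7 RPKM in HL60, 5.61 in MonoMac-1, 2.51 in THP-1 and 2.58 in KG1a. Intervals count read pairs as if each were an independent molecule and cover counting error only.

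DDIT3 did not follow this order. It encodes CHOP, the factor that links a prolonged stress response to cell death, and stood at 12.4 RPKM in HL60 (11.4 to 13.6), 19.4 in THP-1 (17.9 to 21.1), 13.1 in MonoMac-1 (12.3 to 14.0) and 1.72 in KG1a (1.38 to 2.12). The intervals of HL60 and MonoMac-1 overlapped, and KG1a was the line apart, with the next lowest line 7.22 times higher. DDIT3 lies on chromosome 12 at 57910434 to 57914300, 64 bases beyond the end of MARS in the deposited coordinates. Whether reads of either gene run into the other cannot be read from these tables.

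The gene for asparagine synthesis stood far apart in HL60. ASNS, which makes asparagine from aspartate and glutamine (chromosome 7, 97481429 to 97501854), stood at 84.9 RPKM in HL60, against 14.1 in MonoMac-1, 5.86 in THP-1 and 10.2 in KG1a. HL60 exceeded the next line, MonoMac-1, by 6.0 times and THP-1 by 14.5 times. On the log2(RPKM + 1) scale its difference from the next line, 2.50, was the largest of the members, whereas with a pseudocount of 0.1 that of CHAC1, 2.63, was larger than the 2.58 of ASNS.

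The genes for serine synthesis were split by step. PHGDH, which opens the pathway from the glycolytic intermediate 3-phosphoglycerate, stood at 170.5 RPKM in HL60 and at 33.5 in MonoMac-1, 56.4 in THP-1 and 121.7 in KG1a, so that HL60 and KG1a lay close together and above the monocytic lines. PSAT1, the aminotransferase of the next step, stood at 206 RPKM in HL60 and at 23.3 in MonoMac-1, 34.6 in THP-1 and 46.3 in KG1a, a gap of 4.44 times above KG1a. PSPH, the phosphatase of the last step, stood at 7.64 RPKM in HL60, 7.92 in MonoMac-1, 6.90 in THP-1 and 11.7 in KG1a. It was the lowest of these 3 enzymes in every line and was highest in KG1a.

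The genes for both mitochondrial enzymes that carry serine carbon into folate were raised in HL60. SHMT2, which splits serine to glycine, stood at 157.6 RPKM in HL60, 55.5 in MonoMac-1, 64.2 in THP-1 and 30.2 in KG1a. MTHFD2, the next enzyme of the mitochondrial folate route, stood at 188.9 RPKM in HL60, 45.0 in MonoMac-1, 47.3 in THP-1 and 55.7 in KG1a. The MTHFD2 levels of the other 3 lines lay close together, and HL60 lay 3.39 times above the highest, that of KG1a.

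**Figure D2:**
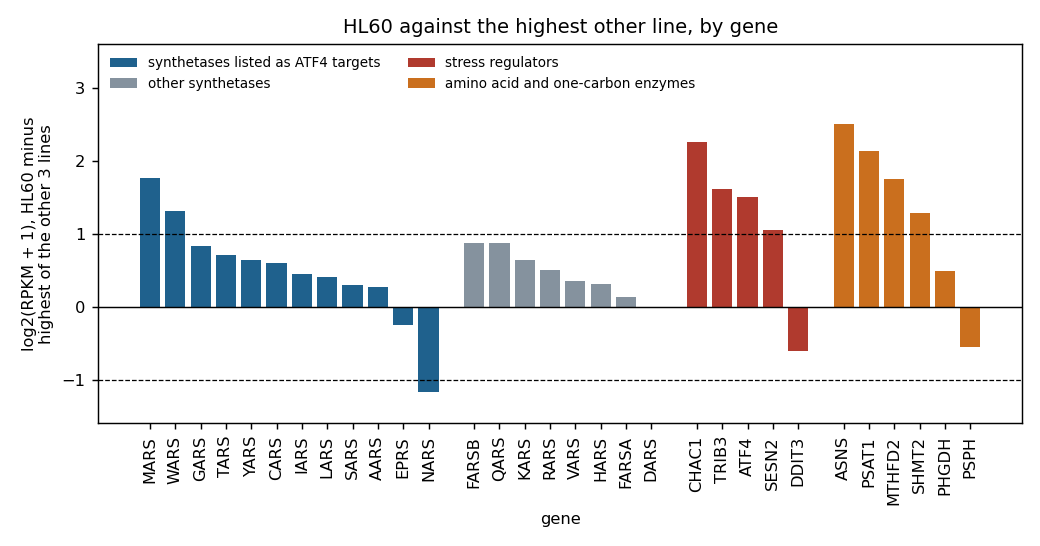
Difference on the log2(RPKM + 1) scale between HL60 and the highest of the other 3 lines, 1 bar per gene, ordered within each role; dashed lines mark 2-fold. Of the ATF4 branch 8 of 11 bars pass the upper line and of the synthetases 2 of 20, where 2.17% of all measured genes do. NARS alone passes the lower line.

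The synthetase genes formed a tighter set, between 21.5 and 199 RPKM in HL60, 9.44 and 109.1 in KG1a, 14.5 and 182 in MonoMac-1, and 17.2 and 131 in THP-1. HL60 was highest for 17 of 20 (23.1% of all measured genes). Their sum was 2141 RPKM in HL60, against 1196 in MonoMac-1, 1198 in THP-1 and 1145 in KG1a, so the last 3 lines differed little in total. SARS and CARS, for serine and cysteine, were the scarcest in HL60, THP-1 and MonoMac-1, and SARS and HARS in KG1a.

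MARS and WARS led the synthetases. MARS, the methionine enzyme that also serves initiator tRNA (chromosome 12, 57881851 to 57910370), stood at 176.7 RPKM in HL60 and at 51.5 in MonoMac-1, 45.8 in THP-1 and 41.8 in KG1a. WARS, the tryptophan enzyme, which interferon gamma also induces, stood at 116 RPKM in HL60 and at 46.3 in MonoMac-1, 32.9 in THP-1 and 43.9 in KG1a. HL60 lay 3.43 and 2.50 times above the next line in these genes.

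GARS, the glycine enzyme, fell short of the rule at 163 RPKM in HL60, 41.5 in MonoMac-1, 55.03 in THP-1 and 91.7 in KG1a. QARS, the glutamine enzyme, stood at 186.8 RPKM in HL60, 98.4 in MonoMac-1, 101.5 in THP-1 and 81.8 in KG1a. The phenylalanine enzyme has unlike subunits encoded by FARSA and FARSB. FARSB stood at 74.3 RPKM in HL60 against 34.9 in MonoMac-1, 40.0 in THP-1 and 24.5 in KG1a, whereas FARSA stood at 199 in HL60 and 182 in MonoMac-1 against 85.3 in THP-1 and 88.4 in KG1a. The levels of the 2 subunit genes thus did not keep 1 order across the lines.

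Of the other synthetase genes that were highest in HL60, AARS, CARS, IARS, KARS, LARS, RARS, SARS, TARS, VARS, YARS and HARS lay 1.21 (AARS) to 1.65 (TARS) times above the next line. For CARS, IARS, TARS, YARS, RARS and AARS that next line was KG1a. KARS, LARS, SARS, VARS and HARS were lowest in KG1a. HARS, the histidine enzyme, was at least 2-fold below each other line there, at 13.4 RPKM in KG1a against 40.2 in HL60, 30.04 in MonoMac-1 and 32.1 in THP-1. HARS, DDIT3 and TRIB3 were the 3 members of 31 that met this rule in KG1a, where 5.66% of all genes did. Without MonoMac-1 the count was 7, and a line fewer can only raise or keep it.

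The 3 synthetases that HL60 did not lead differed from each other. NARS, the asparagine enzyme, stood at 49.0 RPKM in HL60, 111.3 in MonoMac-1, 71.8 in THP-1 and 65.0 in KG1a, so HL60 was lowest for the synthetase of asparagine and highest for ASNS. EPRS, a single protein with glutamate and proline enzymes, stood at 110.4 RPKM in HL60 and 131 in THP-1 against 49.2 in MonoMac-1 and 52.1 in KG1a. DARS, the aspartate enzyme, varied least, at 56.2 RPKM in HL60, 48.6 in MonoMac-1, 49.7 in THP-1 and 56.5 in KG1a. The HL60 and KG1a values of DARS were within 1.01 times of each other, and under median-of-ratios scaling HL60 ranked first in DARS too.

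Of the synthetases listed as ATF4 targets 2 of 12 (MARS and WARS) passed the 2-fold rule in HL60, and of the others 0 of 8 (2.17% of all genes). The difference between these groups was not tested. The median difference between HL60 and the highest other line was 0.52 on the log2 scale for the 12 listed genes and 0.42 for the 8 others. HL60 was highest in 10 of the 12 and in 7 of the 8 (23.1% of all genes). Against THP-1 the medians were 0.89 and 0.78, against MonoMac-1 1.07 and 0.67, and against KG1a 0.77 and 1.17. The listed genes had the larger median difference against both monocytic lines and the smaller against KG1a. Of the 8 enzymes bound in the multi-synthetase complex, 6 were highest in HL60 (23.1% of all genes), and 1 of them, MARS, passed the 2-fold rule (2.17% of all genes).

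**Figure D3:**
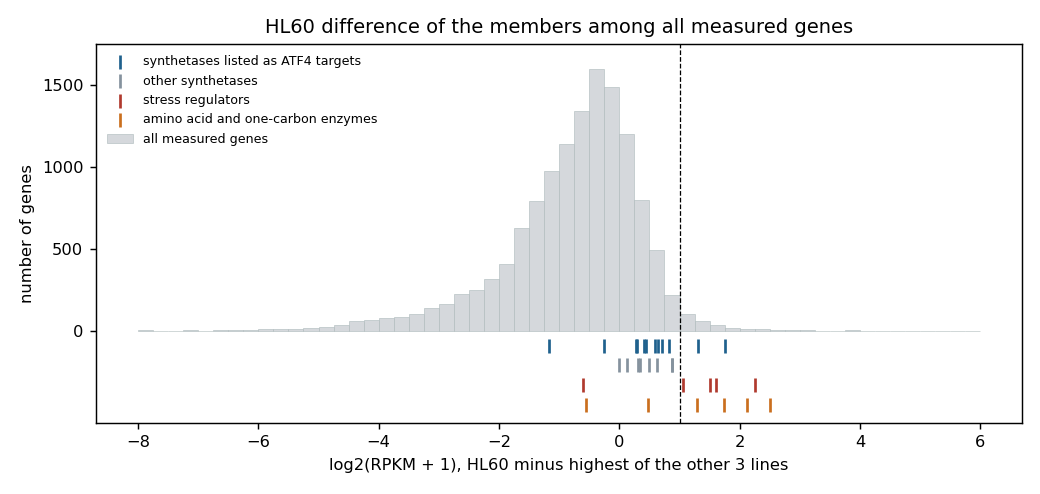
Histogram of all 12976 measured genes by the difference between HL60 and the highest other line on the log2(RPKM + 1) scale (values beyond the axis stand in the end bins), with the 31 genes as ticks below, 1 row per role. All measured genes had a median of -0.58, and 10 ticks lie at or right of the dashed line at 1, where 2.17% of all genes lie.

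The promoters of the members were searched for the C/EBP-ATF response element, the composite site through which ATF4 acts, written TGATGNAA and read on both strands (on the other strand it appears as TTNCATCA). Windows from 250 bases before to 50 after the start site (RefSeq, GRCh38.p14) were matched for 25 of the 31 genes. A match was present for 9 of these 25 (AARS, CARS, GARS, IARS, MARS, NARS, TARS, CHAC1 and ASNS), and 4.46% of 27305 genes with windows had 1. By role it was present in 7 of 10 synthetases listed as ATF4 targets, 0 of 6 other synthetases, 1 of 5 stress regulators and 1 of 4 amino acid enzymes. Listing as an ATF4 target may itself draw on such sites, so this split of the synthetases is no independent check. The windows of CHAC1 and ASNS are printed whole, since these genes showed the largest differences between HL60 and the next line, and those of the 4 matched synthetases with the largest HL60 difference as 48 bases around the match, with the matching letters in capitals and the strand of the gene. These 6 were chosen after their values were seen.
ASNS, chr7:97872359-97872658, minus strand: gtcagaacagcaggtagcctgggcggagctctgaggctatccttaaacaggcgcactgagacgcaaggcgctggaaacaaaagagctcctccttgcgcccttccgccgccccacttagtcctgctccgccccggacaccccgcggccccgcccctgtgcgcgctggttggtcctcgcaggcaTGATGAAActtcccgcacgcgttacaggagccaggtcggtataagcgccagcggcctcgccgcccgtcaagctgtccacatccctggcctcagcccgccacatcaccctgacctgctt
CHAC1, chr15:40953221-40953520, plus strand: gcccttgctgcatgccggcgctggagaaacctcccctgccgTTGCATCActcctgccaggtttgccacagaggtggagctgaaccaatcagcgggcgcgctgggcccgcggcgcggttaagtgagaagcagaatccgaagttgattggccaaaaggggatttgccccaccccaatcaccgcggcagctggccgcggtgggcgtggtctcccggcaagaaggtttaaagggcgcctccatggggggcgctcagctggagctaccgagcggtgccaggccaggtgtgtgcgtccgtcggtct
MARS, chr12:57488044-57488091, plus strand: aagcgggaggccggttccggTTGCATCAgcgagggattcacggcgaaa
GARS, chr7:30594825-30594872, plus strand: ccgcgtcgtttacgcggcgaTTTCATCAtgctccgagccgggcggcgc
TARS, chr5:33440947-33440994, plus strand: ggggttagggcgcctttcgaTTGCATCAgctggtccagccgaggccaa
CARS, chr11:3057398-3057445, minus strand: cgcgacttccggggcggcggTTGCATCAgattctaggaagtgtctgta

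MARS, TARS and CARS hold the same 8 letters, TTGCATCA, as CHAC1, and counted from the start site these letters begin at base -4 in MARS, -2 in CARS and 3 in TARS. In ASNS the match reads TGATGAAA and begins at base -68, and in CHAC1 it begins at base -209. Among the synthetases the median difference between HL60 and the highest other line was 0.60 on the log2 scale for the 7 genes with a match and 0.50 for the 9 genes without. Among the listed synthetases alone it was 0.60 for 7 with a match and 0.30 for the 3 without. CHAC1 stood at 2.26 against a median of 1.28 for the other stress regulators, and ASNS at 2.50 against 1.74 for the other enzymes with a window. Over all 25 members with a window the order was the other way, with a median of 0.71 with a match and 0.75 without. These differences were not tested. NARS, lowest in HL60, holds a match, and ATF4, TRIB3, SESN2, PSAT1 and MTHFD2, raised in HL60, hold none in this window.

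Other genes of the pathway were examined as lists. Of 19 measured further ATF4 targets, 13 were highest in HL60 (23.1% of all genes) and 3 were lowest there (26.2% of all genes). In HL60 4 passed the 2-fold rule (2.17% of all genes): ATF3, ATF5, DDIT4 and VEGFA. DDIT4, an inhibitor of mTORC1, stood at 95.0 RPKM in HL60 against 43.6 in MonoMac-1, 5.69 in THP-1 and 33.1 in KG1a. Others with a wide range led elsewhere or were lost from a single line. VLDLR, a lipoprotein receptor, stood at 14.3 RPKM in HL60, 3.34 in MonoMac-1, 46.7 in THP-1 and 0.0127 in KG1a, and CBS, of cysteine synthesis, stood at 28.0 RPKM in HL60, 16.0 in MonoMac-1, 22.5 in THP-1 and 0.0521 in KG1a. JDP2, a repressor of the AP-1 family, stood at 8.76 RPKM in HL60 against 4.10 in MonoMac-1, 2.39 in THP-1 and 0.301 in KG1a. FGF21 did not reach 1 RPKM in any line.

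The scaffold proteins of the synthetases, the tRNA exportin and TARSL2, a paralog of TARS, were listed together. All 5 genes were highest in HL60 (23.1% of all genes) and 0 of 5 passed the 2-fold rule (2.17% of all genes). EEF1E1 (AIMP3), a scaffold of the multi-synthetase complex, stood at 25.04 RPKM in HL60 against 12.8 in MonoMac-1, 4.28 in THP-1 and 15.6 in KG1a, and XPOT, the tRNA exportin, at 97.2 in HL60 against 62.3 in MonoMac-1, 49.6 in THP-1 and 24.7 in KG1a. AIMP2, another scaffold, stood at 66.3 RPKM in HL60 against 42.0 in MonoMac-1, 33.5 in THP-1 and 27.9 in KG1a, and AIMP1 at 31.8 in HL60 against 22.1 in MonoMac-1, 27.5 in THP-1 and 16.8 in KG1a.

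Of 17 mitochondrial synthetase genes, 6 were highest in HL60 and 6 in THP-1, where 23.1% and 21% of all genes were, and 0 passed the 2-fold rule in HL60 (2.17% of all genes). Their summed level was 311 RPKM in HL60, 293 in MonoMac-1, 311 in THP-1 and 251 in KG1a. The median difference between HL60 and the highest other line was -0.08 on the log2 scale, against 0.47 for the cytosolic enzymes. IARS2, for isoleucine, was lowest in HL60, at 38.8 RPKM against 57.7 in MonoMac-1, 95.2 in THP-1 and 49.3 in KG1a, whereas the cytosolic IARS was highest there. VARS2, for valine, stood at 15.5 RPKM in HL60, 14.0 in MonoMac-1 and 14.2 in KG1a but at 2.01 in THP-1. MARS2 stood at 19.4 RPKM in HL60 against 13.2 in MonoMac-1, 9.03 in THP-1 and 5.77 in KG1a, and HARS2 at 9.98 in HL60 against 11.6 in MonoMac-1, 16.9 in THP-1 and 5.27 in KG1a. GARS and KARS have no separate mitochondrial gene, since each encodes both forms.

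**Figure D4:**
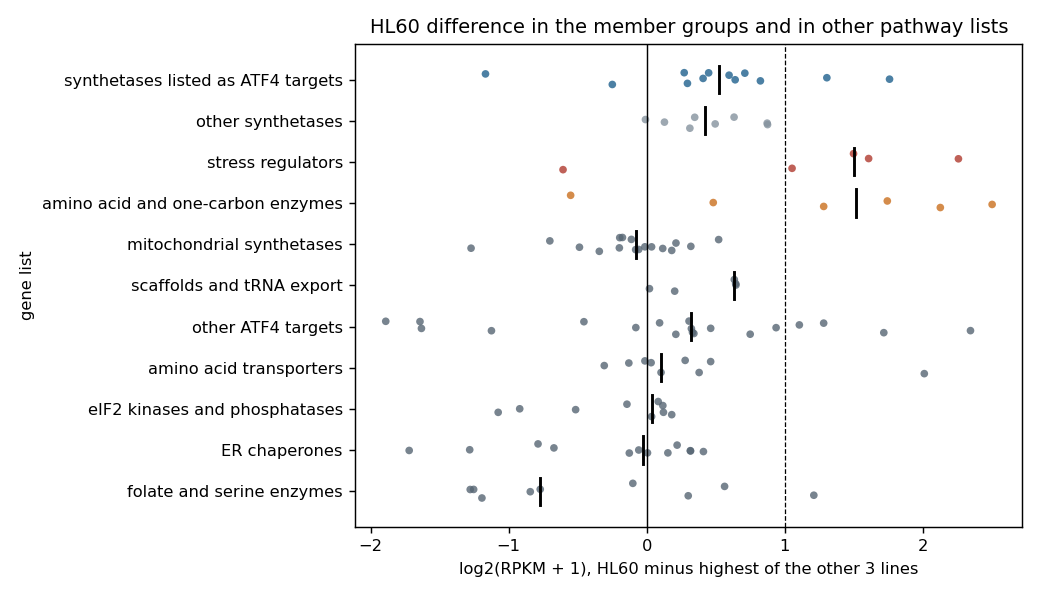
Difference between HL60 and the highest other line on the log2(RPKM + 1) scale for each measured gene (points) of the 4 member groups, in colour, and of 7 other lists, in grey; the black bar is the list median and the dashed line marks 2-fold. The medians of the stress regulators and of the amino acid enzymes lie at 1.5 and 1.51, and those of the synthetase groups at 0.52 and 0.42. Those of the mitochondrial synthetases and of the list labelled ER chaperones, which also holds other genes of the response to unfolded proteins, lie near 0.

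Of the 9 genes for eIF2 kinases, their regulators, eIF2 and its phosphatase, 5 were highest in HL60 (EIF2AK1, EIF2AK3, EIF2AK4, GCN1L1 and IMPACT; 23.1% of all genes) and 0 passed the 2-fold rule there (2.17% of all genes). EIF2AK4 (GCN2), the sensor of uncharged tRNA, stood at 21.5 RPKM in HL60, 14.4 in MonoMac-1, 15.8 in THP-1 and 20.95 in KG1a. EIF2AK3 (PERK), the sensor of the endoplasmic reticulum, stood at 7.96 RPKM in HL60, 5.55 in MonoMac-1, 4.44 in THP-1 and 6.90 in KG1a, and EIF2AK1 (HRI), the heme sensor, at 54.2 in HL60, 43.1 in MonoMac-1, 43.7 in THP-1 and 49.9 in KG1a. All 4 kinase genes were lower in both THP-1 and MonoMac-1 than in both other lines (19.6% of all genes). EIF2AK2 (PKR), the sensor of double-stranded RNA, was highest in KG1a at 15.1 RPKM, against 7.53 in HL60, 5.28 in MonoMac-1 and 6.22 in THP-1. None of these 4 passed the 2-fold rule in any line, and RNA levels of kinases do not report their activity.

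The target of the kinases and the subunits of its phosphatase were highest in other lines. EIF2S1, the eIF2 subunit that the kinases phosphorylate, was lowest in HL60, at 20.6 RPKM against 25.8 in MonoMac-1, 29.7 in THP-1 and 44.5 in KG1a. PPP1R15A (GADD34), the inducible subunit of the eIF2 phosphatase, stood at 18.3 RPKM in HL60, 20.4 in MonoMac-1, 13.4 in THP-1 and 10.6 in KG1a, and the constitutive PPP1R15B at 24.6 in HL60, 21.4 in MonoMac-1, 35.6 in THP-1 and 14.4 in KG1a. GCN1L1, which activates GCN2, stood at 42.4 RPKM in HL60, 32.5 in MonoMac-1, 38.9 in THP-1 and 38.3 in KG1a, and IMPACT, which inhibits it, at 31.3 in HL60, 29.5 in MonoMac-1, 16.3 in THP-1 and 14.3 in KG1a.

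A further list held 12 genes of the response to unfolded proteins in the endoplasmic reticulum, not all of them chaperones. Of these 12, 6 were highest in HL60 (23.1% of all genes) and 0 passed the 2-fold rule there (2.17% of all genes). Their median difference was -0.03 on the log2 scale. In KG1a 5 of 12 (HSPA5, DNAJB9, SDF2L1, PDIA4 and CRELD2) were at least 2-fold below each other line, where 5.66% of all genes were. SDF2L1 stood at 7.60 RPKM in KG1a against 23.6 in HL60, 79.9 in MonoMac-1 and 41.0 in THP-1, and CRELD2 at 6.65 in KG1a against 46.8 in HL60, 40.0 in MonoMac-1 and 26.4 in THP-1. DNAJB9 stood at 1.52 RPKM in KG1a against 9.76 in HL60, 7.09 in MonoMac-1 and 4.26 in THP-1. EDEM1 stood at 34.0 RPKM in HL60 and was highest in THP-1, at 84.2, with 65.4 in MonoMac-1 and 19.1 in KG1a. DDIT3 and TRIB3 were low in KG1a as well.

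Of 9 measured amino acid transporters, 6 were highest in HL60 (23.1% of all genes) and 1 passed the 2-fold rule (2.17% of all genes), SLC6A9, a glycine transporter, at 4.61 RPKM in HL60 against 0.0628 in MonoMac-1, 0.238 in THP-1 and 0.392 in KG1a. By any margin, 6 of 9 were lower in both THP-1 and MonoMac-1 than in both HL60 and KG1a, where 19.6% of all genes were. SLC1A5, a glutamine transporter, stood at 42.8 RPKM in MonoMac-1 and 69.1 in THP-1 against 134 in HL60 and 135.2 in KG1a. SLC38A1 was nearly lost from MonoMac-1, at 0.0872 RPKM, with 33.8 in THP-1, 42.4 in HL60 and 41.5 in KG1a. SLC1A4 stood at 28.6 RPKM in HL60, 35.7 in MonoMac-1, 20.9 in THP-1 and 9.75 in KG1a.

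Of 9 further measured folate and serine genes 3 were highest in HL60 (23.1% of all genes) and 1 passed the 2-fold rule (2.17% of all genes), TYMS, which makes thymidylate, at 403 RPKM in HL60 against 173.7 in MonoMac-1, 128.4 in THP-1 and 166.5 in KG1a. ALDH1L2, a mitochondrial folate enzyme, stood at 12.3 RPKM in HL60, 1.26 in MonoMac-1, 8.02 in THP-1 and 0.0410 in KG1a. MTHFD1L stood at 30.6 RPKM in HL60, 9.41 in MonoMac-1, 19.3 in THP-1 and 32.9 in KG1a.

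The series title names MLL-AF9, and the 2 monocytic lines that carry the fusion were set against the pair without it. Both MLL-AF9 lines lay below both other lines in 13 of the 31 genes (19.6% of all genes) and above them in 2, NARS and DDIT3 (22.1% of all genes). The 13 were AARS, CARS, GARS, IARS, TARS, YARS, DARS, RARS, ATF4, CHAC1, PHGDH, PSAT1 and MTHFD2. PHGDH had the lowest p of the members, at 33.5 RPKM in MonoMac-1 and 56.4 in THP-1 against 170.5 in HL60 and 121.7 in KG1a, which do not overlap. Its difference was -1.70 ± 0.42 on the log2 scale (SE; limma, adjusted p = 0.421).

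With limma, 0 of the 31 genes and 0 of all 12976 genes passed an adjusted p of 0.05 in this comparison. At an unadjusted p under 0.05, 2 members were lower (PHGDH and GARS) and 0 were higher, where 2.64% and 5.91% of all genes were. The counts depended on the line left out. Without HL60, both MLL-AF9 lines lay below KG1a in 14 genes and above it in 12, and without KG1a they lay below HL60 in 27 and above it in 2. With a line fewer such counts can only stay or rise, and their shares over all genes are not given here. The median difference of the 31 genes was -0.49 on the log2 scale, against 0.02 for all measured genes. Fusion, lineage and line cannot be told apart with 2 lines a side.

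Between the monocytic lines the counts lay near those over all genes. THP-1 was at least 2-fold above MonoMac-1 in 1 gene, EPRS, at 131 RPKM in THP-1 against 49.2 in MonoMac-1 (7.65% of all genes), and at least 2-fold below it in 2, FARSA and ASNS (9.68% of all genes; 3 members with a pseudocount of 0.1). Over the 31 genes the median of THP-1 minus MonoMac-1 was 0.09 on the log2 scale. HL60 was at least 2-fold above KG1a in 19 of the 31 genes (13.1% of all genes) and at least 2-fold below it in 0 (17.9% of all genes), with a median difference of 1.18. HL60 was likewise at least 2-fold above THP-1 in 15 (10.6% of all genes) and above MonoMac-1 in 17 (8.25% of all genes), with 0 and 1 (NARS) at least 2-fold lower (16.3% and 17% of all genes), and these 3 counts share the HL60 library.

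A limma fit of HL60 against the other 3 lines, also added with the values known, takes the lone HL60 library to vary as the other lines do. In it 0 of the 31 genes and 0 of all genes passed an adjusted p of 0.05, the lowest adjusted p of a member was 0.898, and 29 of 31 differences were positive. At an unadjusted p under 0.05, 11 members were higher, against 1.9% of all genes, and 0 were lower (3.24% of all genes). The largest difference was that of ASNS, 3.03 ± 0.58 on the log2 scale (SE; limma, adjusted p = 0.898), followed by CHAC1 at 2.81 ± 0.64 and PSAT1 at 2.59 ± 0.50. No single member of the 31 thus had a difference past the threshold.

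Over 63 genes for cytosolic ribosomal proteins the median level was 1098 RPKM in HL60, against 535 in MonoMac-1, 777 in THP-1 and 618.02 in KG1a, and 49 of 63 were highest in HL60 (23.1% of all genes). When the libraries were scaled to the ribosomal protein genes, 12 of the 31 genes were highest in HL60 (3.95% of all genes) and 3 passed the 2-fold rule (0.74% of all genes). This scaling was added once the values were known, and with it the median over all genes of HL60 minus the mean of the other lines was -0.69, against -0.10 as deposited. The 3 were ASNS, CHAC1 and PSAT1, and the other 9 were ATF4, TRIB3, SESN2, SHMT2, MTHFD2, MARS, WARS, GARS and FARSB. Relative to ribosomal protein genes, 4 of 20 synthetases and 8 of 11 genes of the ATF4 branch were thus highest in HL60. Some margins were slight: on the log2 scale GARS led by 0.002, FARSB by 0.05 and SESN2 by 0.13, while TARS and QARS fell short at -0.11. The part of the ribosomal protein levels in the HL60 result was not tested.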

How the data were processed

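RNA of 4 leukemia cell lines was sequenced, 1 library a line, after TRIzol extraction and standard Illumina library preparation per the labels' protocols. CASAVA 1.8.2 and hg19 are named in the submitters' processing notes. Aligner, annotation and strand handling were not given in the sources used here. Per line the authors deposited a table of 21893 entries with an RPKM value and a whole-number coverage signal. From its values this deposited signal was read as bases lying on a gene, and 200 bases were taken as 1 read pair for the Poisson counting intervals (scipy 1.17.1). Values were analysed as log2(RPKM + 1), which understates changes of weak genes. For 28 repeated symbols the entry with the highest mean was kept. limma 3.58.1 (R 4.3.3; trend, two-sided, Benjamini-Hochberg over 12976 genes) had 2 residual degrees of freedom. The fit was first tested on simulated data with less spread than a typical gene had between these lines, so that test does not give its power here. With 1 library a line, p-values measure the spread between lines. The members and lists were chosen with earlier results of these data known. All 31 members could be named, and of the other lists the 4 genes with the widest range, the eIF2 kinases and phosphatases in full, and genes that passed the 2-fold rule. Alternatives were pseudocount, filter, scaling, the KG1a share, repeated symbols and leaving out each line.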

Additional observations from a re-analysis of the deposited data

How the results depend on the processing

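Every count is of the 31 genes, and with 1 library a line no spread between cultures is known. No paired analysis was possible because each line has 1 library. The counts of 26 genes highest in HL60 and 10 genes 2-fold above each other line were 26 to 27 and 9 to 10 under another pseudocount, filter, median-of-ratios scaling, quantile normalization, removal of the KG1a share and another choice of repeated symbols. Both MLL-AF9 lines lay above the other lines in 1 gene under median-of-ratios scaling and 1 under quantile normalization, against 2, and under quantile normalization THP-1 was 2-fold below MonoMac-1 in 1 gene, against 2.

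Under ribosomal protein scaling the counts were 12 highest in HL60, 3 raised and 1 lowered 2-fold in HL60, 1 lowered in THP-1, 5 higher and 8 lower in both MLL-AF9 lines, 0 higher and 5 lower in THP-1 than in MonoMac-1, and 9 higher and 2 lower in HL60 than in KG1a. The cause was not tested. With 1.5-fold in place of 2-fold, 17 genes were raised in HL60, 1 was lowered in THP-1, 1 raised and 1 lowered in MonoMac-1, 6 were lowered in KG1a, and 3 were higher and 4 lower in THP-1 than in MonoMac-1. With 3-fold, 6 were raised in HL60, 1 was lowered in KG1a, 0 were higher and 0 lower in THP-1 than in MonoMac-1, and 10 were higher in HL60 than in KG1a. A looser limit can only raise or keep the count of any set, and shares of all genes at 1.5-fold and 3-fold are not given here. For ribosomal protein scaling such shares are given above only for the genes highest and those raised in HL60. The other counts in this paragraph thus cannot be set against all genes.

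When each line was left out in turn, 26 to 27 genes were highest in HL60, 11 to 14 were raised and 0 lowered there. In KG1a 0 to 1 were raised and 3 to 7 lowered. In MonoMac-1 0 to 1 were raised and 0 to 2 lowered, and likewise 0 to 1 and 0 to 2 in THP-1. Both MLL-AF9 lines lay above the rest in 2 to 12 genes and below in 14 to 27. The counts raised or lowered in a line come only from the runs that kept it. With a line fewer to compare with, all these counts could only stay or rise, so they are no check of the main counts. Counts of limma calls were 0 throughout. Of 341 values of single members 46 moved beyond the spread between the other lines, and of 161 group medians 13 moved. Some values changed sign. Under ribosomal protein scaling the HL60 difference of AARS went from 0.27 to -0.55 and that of PHGDH from 0.48 to -0.34. Without THP-1, the line highest for EPRS, that of EPRS went from -0.25 to 1.07, and leaving out another line can only raise or keep this difference. With a line left out, the median MLL-AF9 pair difference of the stress regulators went from -0.54 to as high as 0.43. Intervals of weak genes such as CHAC1 are set by depth.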
